A study of Mus musculus with 4 samples.

Results

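The 10 genes described here encode the proteins that set the restriction point of the mammalian cell cycle: the D-type cyclins Ccnd1, Ccnd2 and Ccnd3, the kinases Cdk4 and Cdk6, the kinase inhibitors Cdkn1b (p27), Cdkn1c (p57) and Cdkn2c (p18), and the pocket proteins Rb1 and Rbl2 (p130). They were taken by symbol from the 53465 genes of the count table, each symbol matched 1 Ensembl identifier, and 9 of the 10 had enough reads to be tested. The study sequenced poly(A) RNA from B16 cells, an established mouse melanoma line, in 2 control libraries made without EM-plasma and in 2 libraries titled as 4 h of treatment. The labels describe EM-plasma as plasma that had been treated with exosome-mimetic nanovesicles, give no collection time for the controls, and do not say whether the controls received plasma or nanovesicles alone or what kind of plasma was used. No genetic change is named for either group, the B16 subline is not given, and separate cultures are not stated for the replicates. What a p-value here is measured against is the spread within groups, drawn mostly from all tested genes together (medians, 25.46 of 27.46 degrees of freedom). Because separate cultures are not stated, that spread may be technical.

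D-type cyclins are made when growth factor signals arrive and turn over quickly, and their transcripts are therefore read as a sign of mitogenic input. With CDK4 or CDK6 they phosphorylate RB and its relatives, which otherwise hold E2F factors and the genes of DNA synthesis silent. INK4 proteins such as p18 bind the kinases, while p27 and p57 bind cyclin-kinase complexes, and the pocket protein p130 acts in the DREAM complex that represses cell cycle genes in resting cells.

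The short stretches below show what makes these genes relatives and how far their transcripts differ, which bears on whether reads of one could be counted for another. They are coding strands of GENCODE transcripts on GRCm38, 5′ to 3′. In the D-cyclins the capitals mark the 5 codons of the LxCxE motif, by which D-cyclins bind RB, and each stretch starts at the first base of the coding sequence.

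Ccnd1: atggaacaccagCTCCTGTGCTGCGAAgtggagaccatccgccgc
Ccnd2: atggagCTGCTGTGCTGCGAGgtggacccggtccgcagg
Ccnd3: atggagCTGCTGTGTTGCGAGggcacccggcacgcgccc

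In the kinases the capitals mark the 7 codons of the helix that takes the place of the PSTAIRE motif of CDK1 and contacts the cyclin.

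Cdk4: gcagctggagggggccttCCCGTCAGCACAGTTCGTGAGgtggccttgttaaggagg
Cdk6: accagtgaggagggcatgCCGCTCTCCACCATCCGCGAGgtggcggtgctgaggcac

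Across whole coding sequences the aligned bases were 71.4% identical between Ccnd1 and Ccnd2, 66.6% between Ccnd1 and Ccnd3 and 68.8% between Ccnd2 and Ccnd3. The longest run of identical bases shared by any of these 3 pairs was 20 bases, between Ccnd1 and Ccnd2. Cdk4 and Cdk6 were 68.8% identical, with a longest shared run of 20 bases, and Rb1 and Rbl2 were 61.2% identical, with a longest run of 12 bases in the coding sequence. The members are thus not near-identical copies. Several do overlap another gene on the opposite strand: Ccnd1 shares 1100 exon bases with LTO1, Cdk4 641 with Tspan31, Rbl2 693 with Aktip, and Rb1 488 with Rcbtb2 and 408 with Lpar6, and although the library kit marks strand, the strand setting of the counting is not given in the sources used here. LTO1 had 865 to 1038 reads per library against 10317 to 11668 for Ccnd1.

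Libraries held 46295133 to 49367932 counted reads. All 8 melanocyte markers were present, with a summed level of 11370 to 11440 CPM (a count relative to library size, with libraries scaled by edgeR's TMM method) in controls and 11540 to 11730 CPM in treated libraries, and 0 of them passed the test. Of 6 immune, 5 erythroid, 4 platelet, 3 endothelial and 4 epithelial markers, 4, 4, 2, 2 and 3 had no read in any library, and the summed level of each list was at most 1.81 CPM. The most abundant marker of each of these lists was Cd68, Hba-a1, Itga2b, Pecam1 and Cdh1, and that of the melanocyte list was Tyrp1. The 4 fibroblast markers, led by Col1a2, summed to 27.6 to 29.3 CPM in controls and 29.3 to 30.3 CPM in treated libraries. The immune list stood at 0.865 to 1.42 CPM in controls and at up to 1.74 CPM after EM-plasma. The summed levels of the melanocyte, fibroblast and immune lists were higher in both treated libraries than in both controls. The part of these lists in the results was not tested. In the melanocyte list Sox10, Tyrp1, Pmel, Mlana and Slc45a2 had both treated libraries above both controls, and Dct overlapped. Mitf (log2 fold change -0.091, edgeR adjusted p = 0.215) and Tyr (-0.22, edgeR adjusted p = 0.0532) had both treated libraries below both controls. The immune sum was almost all Cd68 (mean 1.38 CPM). Of the fibroblast list Col1a1 was at 2.56 and 2.62 CPM in controls and at 4.27 and 3.39 CPM in treated libraries (adjusted p = 0.0641).

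The comparison asked which transcripts differed between EM-plasma-treated and control cells. Of the 9 tested members 1 rose, Ccnd1, and 0 fell, at a Benjamini-Hochberg adjusted p below 0.05 over 13664 genes (edgeR, quasi-likelihood). In the same test 6.21% of all genes were called, 3.34% higher and 2.88% lower, so 1 called gene among 9 is no more than a single call. By unadjusted p, 4 of the 9 were below 0.05 (Ccnd1, Rb1, Cdk6 and Ccnd3), against 19.5% of all genes. Both treated libraries lay above both controls for 2 members and below both for 6, against 24.3% and 24.8% of all genes. That is 8 of 9 without overlap against 49.1%. The members were chosen with earlier results of these libraries known, so these counts are not independent evidence. The median log2 fold change was -0.05 over the 9 members and -0.0027 over all genes. For scale, the test was run on simulated libraries of this comparison (13487 genes in the fit). It found 36.5% of genes changed 1.2-fold and 75.9% of those changed 1.5-fold. Those genes were drawn from all levels and given 1 common spread, so the shares are not those for genes like the members. The members' SE ran from 0.038 (Ccnd2) to 0.071 (Rb1), against a median of 0.0698 over tested genes. Their fold changes were all smaller than 1.2-fold.

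**Figure D1:**
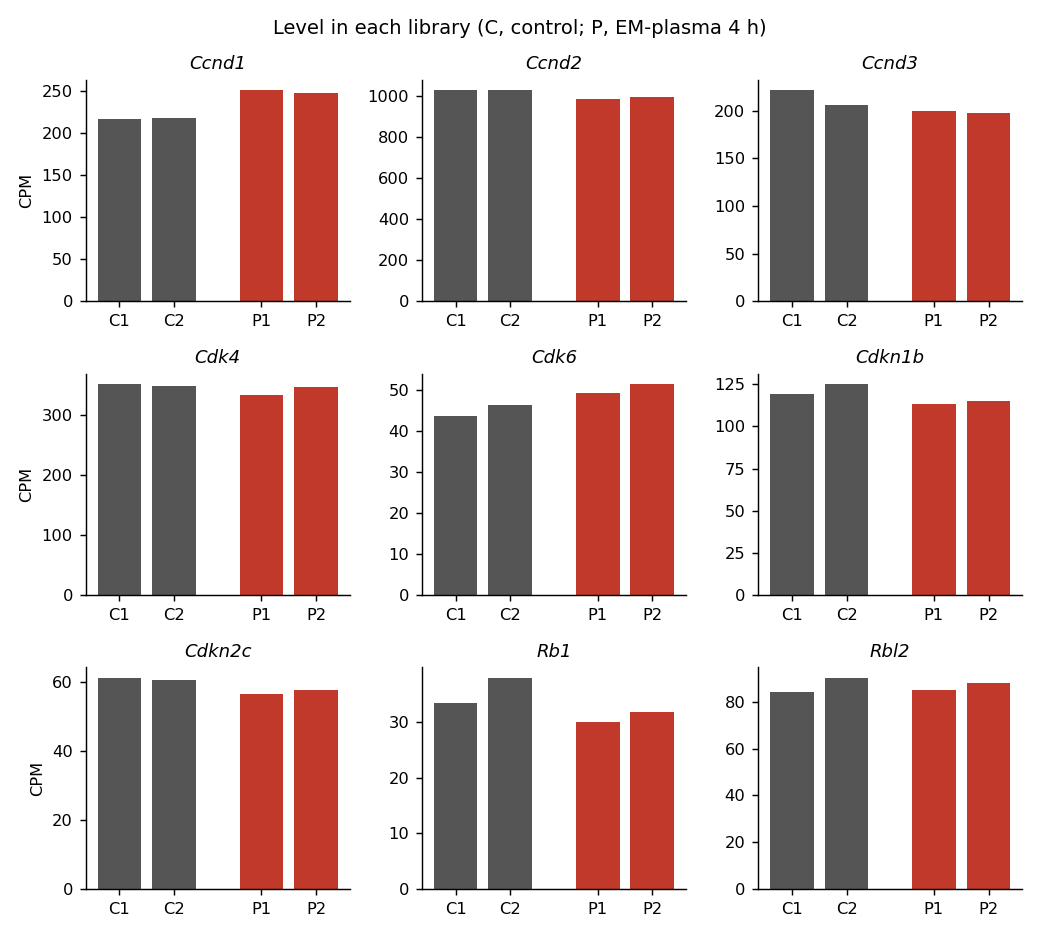
Level of the 9 tested genes in each library, in CPM from 0, with control libraries (C1, C2) in grey and EM-plasma libraries (P1, P2) in red. Ccnd1 and Cdk6 are the genes with both red bars above both grey bars, and Rbl2 is the gene whose groups overlap.

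Ccnd1, the cyclin most tied to mitogenic RAS-ERK signalling, lies on chromosome 7 (144929931 to 144939925, minus strand, ENSMUSG00000070348). It was at 216.6 and 217.6 CPM in the control libraries and at 250.3 and 247.2 CPM in the treated ones. The treated libraries stood clear of the controls, and replicates of each group lay close together. Ccnd1 rose 1.15-fold, from 217 ± 0.752 to 249 ± 2.17 CPM (SD, n = 2 per group), or by 0.20 on the log2 scale (SE 0.045, 95% interval 0.10 to 0.29, adjusted p = 0.00652). The call held without control 1 (adjusted p = 0.0417) and ended without control 2 (0.0853), EM-plasma 1 (0.345) or EM-plasma 2 (0.248), while the log2 fold change stayed between 0.19 and 0.20 in these 4 fits. LTO1, on the opposite strand, had a log2 fold change of 0.17 (adjusted p = 0.223), and its part in the value of Ccnd1 was not tested.

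Ccnd2, the D-cyclin with the most reads here (chromosome 6, 127125162 to 127152193, minus strand, ENSMUSG00000000184), was at 1027 and 1026 CPM in controls and at 987 and 997 CPM after EM-plasma. Both treated libraries were lower, by a small margin. The log2 fold change was -0.05 (SE 0.038, 95% interval -0.13 to 0.028, adjusted p = 0.515), an interval that holds no rise of the size seen for Ccnd1.

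Ccnd3, the D-cyclin typical of differentiating and lymphoid cells (chromosome 17, 47505051 to 47599691, plus strand, ENSMUSG00000034165), was at 221 and 205 CPM in controls and at 199 and 198 CPM in treated libraries. Control 1 was the highest of the 4 libraries, and control 2 lay nearer to the treated pair than to control 1. The log2 fold change was -0.10 (SE 0.048, 95% interval -0.20 to -0.0053, adjusted p = 0.224). It was -0.15 without control 2 and -0.052 without control 1, and it was not called in either fit.

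The balance among the D-cyclins can be read inside each library, where no scaling enters. The ratio of Ccnd1 to Ccnd2 reads was 0.211 and 0.212 in controls and 0.254 and 0.248 in treated libraries. The ratio of Ccnd1 to Ccnd3 reads was 0.979 and 1.06 in controls and 1.26 and 1.25 in treated libraries. Both ratios were thus higher in both treated libraries than in both controls. The ratio of Ccnd2 to Ccnd3 reads, by contrast, overlapped between groups (exact permutation p = 0.667). With 2 libraries a group, a two-sided exact permutation test cannot go below 0.333, which is the p of the first 2 ratios (0.555 after adjustment over the 10 ratios computed).

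Cdk4, the kinase partner of D-cyclins with the higher level here (chromosome 10, 127063534 to 127067920, plus strand, ENSMUSG00000006728), was at 352 and 348 CPM in controls and at 333 and 347 CPM in treated libraries. EM-plasma 2 was within 2 CPM of control 2, and EM-plasma 1 was the lowest. This was a log2 fold change of -0.042 (SE 0.043, 95% interval -0.13 to 0.046, adjusted p = 0.646). Reads of Ccnd2, Ccnd3, Cdkn1b and Cdkn2c relative to Cdk4 shifted by -0.0075, -0.060, -0.055 and -0.051 on the log2 scale. The groups overlapped for Ccnd2, Ccnd3 and Cdkn1b, while for Cdkn2c both treated libraries lay below both controls. The two-sided exact permutation p was 0.667 for Ccnd3 and Cdkn1b and 0.333 for Cdkn2c.

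Cdk6, the other D-cyclin kinase (chromosome 5, 3341485 to 3531008, plus strand, ENSMUSG00000040274), was at 43.7 and 46.5 CPM in controls and at 49.2 and 51.5 CPM after EM-plasma. The groups did not overlap, yet the step between control 2 and EM-plasma 1 was about as large as that between the controls. The log2 fold change was 0.16 (SE 0.062, 95% interval 0.033 to 0.29, adjusted p = 0.132), which did not pass. The ratio of Cdk6 to Cdk4 reads was 0.124 and 0.133 in controls and 0.148 and 0.148 in treated libraries (two-sided exact permutation p = 0.333, adjusted p = 0.555).

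Cdkn1b, which encodes the inhibitor p27 (chromosome 6, 134920401 to 134925513, plus strand, ENSMUSG00000003031), was at 119 and 125 CPM in controls and at 113 and 115 CPM in treated libraries. Both treated libraries were lower than both controls, with a log2 fold change of -0.098 (SE 0.051, 95% interval -0.20 to 0.0064, adjusted p = 0.294). The ratio of Ccnd1 to Cdkn1b reads was 1.82 and 1.74 in controls and 2.21 and 2.15 in treated libraries (two-sided exact permutation p = 0.333, adjusted p = 0.555).

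Cdkn2c, the INK4 inhibitor p18 (chromosome 4, 109660876 to 109667189, minus strand, ENSMUSG00000028551), was at 61.1 and 60.3 CPM in controls and at 56.3 and 57.5 CPM in treated libraries. The groups did not overlap, and the log2 fold change of -0.093 did not pass (SE 0.058, 95% interval -0.21 to 0.026, adjusted p = 0.407). Cdkn1c, an imprinted gene for the inhibitor p57 (chromosome 7, 143458339 to 143461050, minus strand, ENSMUSG00000037664), had 2 reads in EM-plasma 2 and 0 in the other 3 libraries. A count of 0 allows up to 3 reads, or at most 0.0644 CPM, and the 2 reads of EM-plasma 2 allow more. With so few reads no fold is given.

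Rb1, the retinoblastoma gene (chromosome 14, 73183673 to 73325822, minus strand, ENSMUSG00000022105), was at 33.5 and 38.0 CPM in controls and at 30.0 and 31.9 CPM in treated libraries. The controls differed from each other by more than the treated libraries did, and control 1 lay closer to EM-plasma 2 than to control 2. The log2 fold change was -0.21 (SE 0.071, 95% interval -0.36 to -0.063, adjusted p = 0.0792), close in size to that of Ccnd1 but with fewer reads behind it and not past the threshold. It was -0.30 without control 1 (adjusted p = 0.0554) and -0.11 without control 2 (adjusted p = 0.43).

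Rbl2, the gene of p130 (chromosome 8, 91070057 to 91123844, plus strand, ENSMUSG00000031666), was at 84.1 and 90.3 CPM in controls and at 85.2 and 88.1 CPM in treated libraries, with both treated values between the control values. The log2 fold change of -0.0093 (SE 0.055, 95% interval -0.12 to 0.10, adjusted p = 0.952) had no stable sign, being above 0 in 4 of 12 other fits. The ratio of Rbl2 to Rb1 reads was 2.51 and 2.38 in controls and 2.84 and 2.77 in treated libraries (two-sided exact permutation p = 0.333, adjusted p = 0.555).

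**Figure D2:**
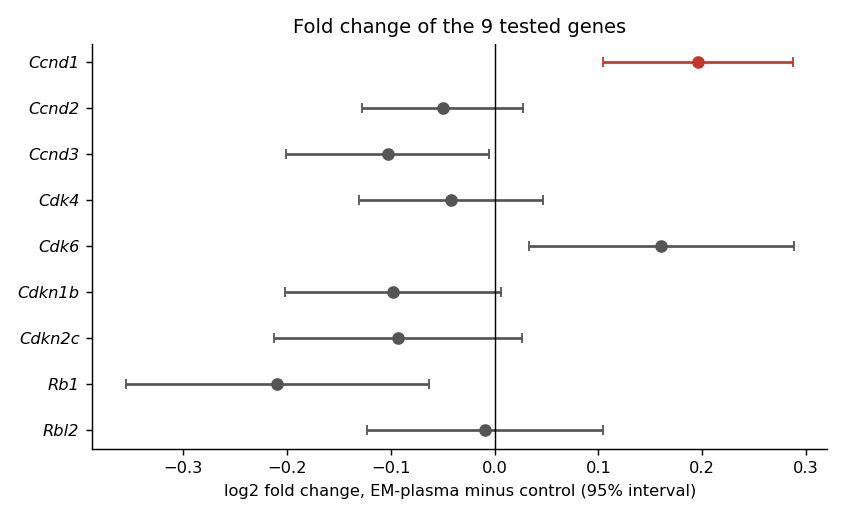
Log2 fold change of each tested gene, EM-plasma minus control, with its 95% interval from edgeR; red marks the gene called at an adjusted p below 0.05. The intervals of Ccnd1 and Cdk6 lie above 0, those of Ccnd3 and Rb1 below it, and the other 5 cross it.

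**Figure D3:**
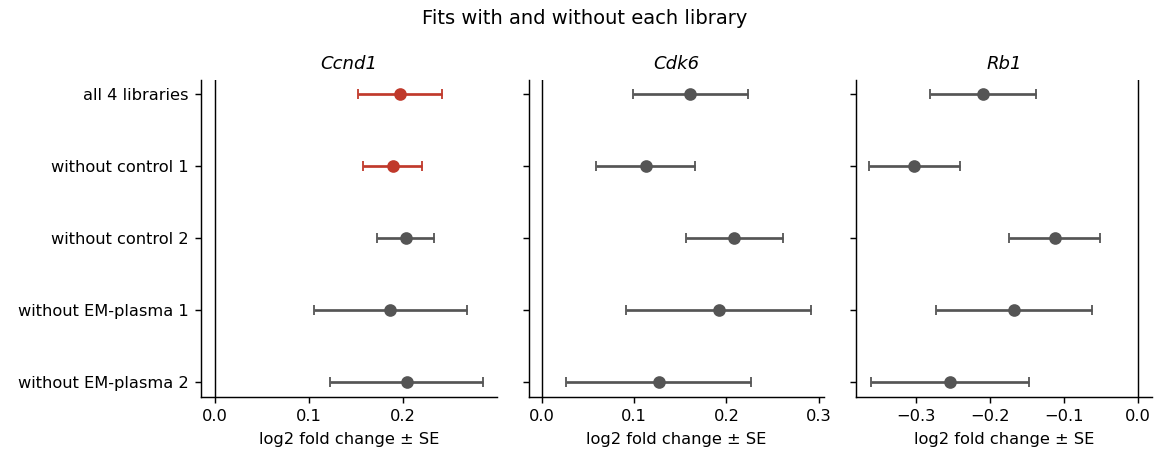
Log2 fold change ± SE of Ccnd1, Cdk6 and Rb1 in the fit of all 4 libraries and in the fits without 1 library, with red for an adjusted p below 0.05. The value of Ccnd1 hardly moves while its SE and call do, and Rb1 runs from -0.30 without control 1 to -0.11 without control 2.

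Levels of different genes were compared only per length, as CPM per kb of merged exons. Ccnd2 (107 on average over the 4 libraries) and Cdk4 (106) led, with EM-plasma 2 the library in which Cdk4 was the higher, and Ccnd1 was the third, at 46.1 ± 0.16 in controls and 52.8 ± 0.461 in treated libraries (SD, n = 2 per group). Cdkn1b (25.9), Ccnd3 (23.5) and Cdkn2c (21.9) followed. Over the 4 libraries each of these 3 overlapped its neighbour, but their order was the same within every library. Rbl2 (11.5), Rb1 (5.55) and Cdk6 (3.41) stood apart from one another, and Cdkn1c was near 0. Cdk6 has the longest merged exons of the group, 13989 bases against 3249 for Cdk4. With the length of the longest transcript instead, Cdk4 (168) came before Ccnd2 (159), and Ccnd3, which has 21 annotated transcripts, was at 53.4 and came before Cdkn1b.

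**Figure D4:**
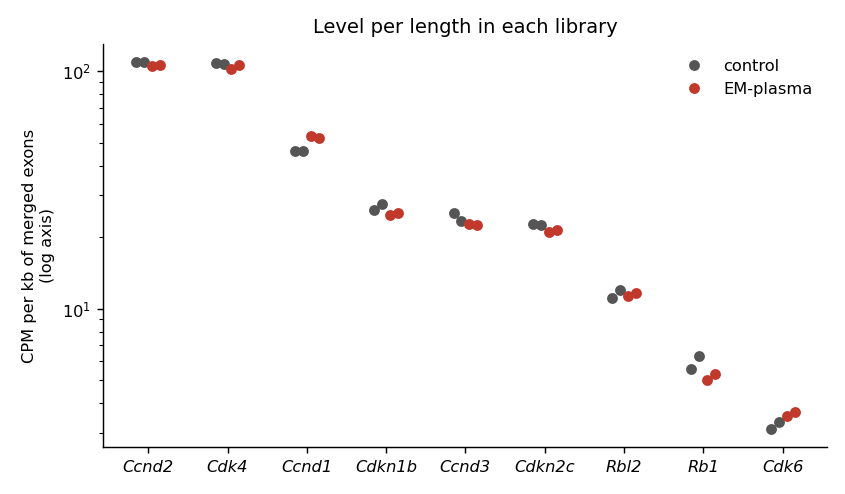
Level per kb of merged exons in each library on a log axis, the 9 tested genes ordered by their mean, with controls in grey and EM-plasma libraries in red. Ccnd2 and Cdk4 lie together near 107, Cdkn1b, Ccnd3 and Cdkn2c lie close to one another, and Cdk6 is the lowest of these 9 at 3.41.

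By a rule on likeness of profile, the 4 genes nearest to Ccnd1 among 11598 named genes, by Euclidean distance between log2 deviations from the control mean over 4 libraries, were Slc23a2, Gpr161, Inpp5e and Dffa, at distances of 0.013 to 0.019. Those nearest to Rb1 were Pdcd10, Pcmtd1, Depdc7 and Srp54c, at 0.015 to 0.025. With 4 libraries in 2 groups such a distance describes little more than a fold change of the same size.

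Further genes of the pathway were read from the same fit in 6 lists. Among 11 tested genes of the G1 kinase machinery 0 were called by edgeR, against 6.21% of all genes. In the same test 2 had an unadjusted p below 0.05, against 19.5% of all genes. DESeq2 and limma voom called 0 as well. Cdkn1a, the p53-induced inhibitor p21, was at 229 and 222 CPM in controls and at 228 and 222 CPM in treated libraries, a difference of -0.0027 on the log2 scale (adjusted p = 0.984, 95% interval -0.096 to 0.09). Ccne1, the cyclin that follows the D-cyclins, had a log2 fold change of -0.059 (adjusted p = 0.591), its kinase Cdk2 one of 0.03 (adjusted p = 0.76) and the kinase chaperone gene Cdc37 one of -0.031 (adjusted p = 0.77). Cdkn2a and Cdkn2b, which encode the inhibitors p16 and p15 and lie side by side on chromosome 4, had 0 reads in all 4 libraries, which allows at most 0.0644 CPM in each. The related inhibitor gene Cdkn2d was read at 44.3 to 48.2 CPM, so of the INK4 genes Cdkn2c and Cdkn2d had reads.

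Of 21 tested partners of the pocket proteins edgeR called 0, as did DESeq2 and limma voom. By edgeR 5 had an unadjusted p below 0.05, where 19.5% of all genes did and 6.21% were called. Nearest to the threshold was E2f8, an E2F repressor, with a log2 fold change of -0.18 (adjusted p = 0.0518), which was called with edgeR's newer dispersion (0.0457). E2f1, the E2F factor that drives S phase genes, was at 88.7 and 81.3 CPM in controls and at 78.8 and 78.0 CPM in treated libraries (log2 fold change -0.12, 95% interval -0.23 to -0.00067, adjusted p = 0.252). The most abundant partners were Rbbp4, a histone-binding subunit of RB and DREAM complexes (log2 fold change -0.064, adjusted p = 0.482), and Tfdp1, the dimer partner of E2F factors (-0.075, adjusted p = 0.38). Of 17 genes of cyclin D and p27 turnover 0 were called by edgeR, DESeq2 or limma voom. By edgeR 3 had an unadjusted p below 0.05, against the same 19.5% of all genes. Cdc34, a ubiquitin-conjugating enzyme, lay just outside the threshold (log2 fold change 0.15, adjusted p = 0.0503) and was called by edgeR with RLE size factors (0.0434), library totals (0.0327), a minimum mean of 5 CPM (0.0274) or the newer dispersion (0.0483). Ddb1 and Cul1, ubiquitin ligase subunits and the most abundant of them, had log2 fold changes of 0.053 and -0.048 (adjusted p = 0.494 and 0.618).

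Transcription factors known to act on the cyclin D and p27 genes held 5 called genes among 15 tested, 3 higher and 2 lower, where 6.21% of all genes were called, 3.34% higher and 2.88% lower. This list was drawn up with earlier results of these libraries known, and so its count is not independent evidence. Etv4 and Etv5, ETS factors of the PEA3 group that respond to ERK signalling, rose 2.34-fold, from 2.5 ± 0.46 to 5.86 ± 0.28 CPM, and 1.41-fold, from 20.0 ± 0.00626 to 28.2 ± 0.849 CPM (SD, n = 2 per group; adjusted p = 1.41e-05 and 4.37e-05). Myc, whose product binds E-boxes, was at 147 and 140 CPM in controls and at 164 and 159 CPM in treated libraries, and rose 1.12-fold (adjusted p = 0.0356). Ets1, another ETS factor, fell by 0.21 on the log2 scale, from 588 ± 14.6 to 508 ± 5.63 CPM (adjusted p = 0.00141). Foxo3, a forkhead factor that raises p27 and is held out of the nucleus by AKT, was at 131 and 123 CPM in controls and at 111 and 105 CPM in treated libraries, and fell by 0.23 on the log2 scale (adjusted p = 0.00557). Without control 2 the calls of Etv4 (adjusted p = 0.0804), Etv5 (0.0706) and Ets1 (0.0804) ended, and that of Ets1 also ended without EM-plasma 1 (0.196) or EM-plasma 2 (0.115). For Myc and Foxo3 no fit of 3 libraries kept the call. Leaving out a control gave adjusted p = 0.0524 (control 1) and 0.215 (control 2) for Myc and 0.0778 and 0.103 for Foxo3. Leaving out a treated library gave 0.641 (EM-plasma 1) and 0.346 (EM-plasma 2) for Myc and 0.0785 and 0.372 for Foxo3.

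The windows upstream of Cdk4 and Cdkn1b are shown because Myc can bind E-boxes and Foxo3 the forkhead motif. Neither motif is particular to these factors. Cdk4 and Cdkn1b did not pass the test, and a link between them and Myc or Foxo3 was not tested. Both are the 250 bases before the start site in RefSeq's promoter table (GRCm38.p6, plus strand), 5′ to 3′. The table held windows for 6 of the 10 members: Ccnd3, Cdk4, Cdk6, Cdkn1b, Cdkn2c and Rbl2. Capitals mark the E-box CACGTG and the GC box GGGCGG, searched on both strands, which did not overlap in these windows.

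Cdk4, chr10:127063285-127063534: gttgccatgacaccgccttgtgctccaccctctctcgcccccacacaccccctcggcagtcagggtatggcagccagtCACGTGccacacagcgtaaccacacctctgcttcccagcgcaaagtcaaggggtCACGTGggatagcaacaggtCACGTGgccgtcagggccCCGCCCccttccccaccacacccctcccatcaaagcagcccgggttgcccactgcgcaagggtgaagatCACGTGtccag
Cdkn1b, chr6:134920151-134920400: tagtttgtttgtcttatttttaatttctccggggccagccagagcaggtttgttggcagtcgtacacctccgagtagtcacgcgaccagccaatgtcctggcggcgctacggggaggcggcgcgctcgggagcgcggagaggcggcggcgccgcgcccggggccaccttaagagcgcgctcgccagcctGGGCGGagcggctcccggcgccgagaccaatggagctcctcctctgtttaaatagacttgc

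The Cdk4 window held 4 E-boxes and 1 GC box. Of 32851 such windows 6.02% held an E-box and 0.0213% held 4 or more, while 32.7% held a GC box. The Cdkn1b window held 1 GC box and no match to the forkhead motif GTAAACA, which 3.17% of all windows held. An E-box also stood 214 bases before the RefSeq start of Cdk6, and a forkhead match 236 bases before the upstream start of Ccnd3. That Cdk6 start lies inside the gene as placed above, and its window shared 57 bases with annotated Cdk6 exons. The upstream window of Cdkn2c lay wholly in Cdkn2c exons (250 of 250 bases). The E2F letters TTTCGCGC, TTTGGCGC and TTTCCCGC, on either strand, were in none of the 8 windows of these 6 genes, against 0.256%, 0.417% and 0.895% of all windows. The ETS letters CCGGAAG, held by 6.91% of all windows, were in 1 of the 8, the downstream one of Ccnd3, and the cAMP element TGACGTCA (1.55%) was in none. Such matches are letters in a window and were not tested as binding sites.

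Genes that RB and DREAM restrain were read last. Their lists too were drawn up with earlier results of these libraries known, so the counts below are not independent evidence. Genes of the same list may also vary together. Of 34 tested E2F target genes of the G1/S step 4 fell and 0 rose, against 2.88% and 3.34% of all genes, and their median log2 fold change was -0.071 against -0.0027 over all genes. Of the 34 log2 fold changes 29 were below 0, and 28 to 30 over the 12 other fits. Of all 13664 genes 6952 were below 0 in the reported fit, 6468 with library totals and 7106 with DESeq2. In 20 of the 34 both treated libraries lay below both controls and in 0 above them, against 24.8% and 24.3% of all genes. Uhrf1, which maintains DNA methylation behind the fork, was at 442 and 422 CPM in controls and at 374 and 376 CPM in treated libraries, and fell by 0.20 on the log2 scale (adjusted p = 0.00291). Pola1, the catalytic subunit of the primase polymerase, fell by 0.22 (adjusted p = 0.00971), Pcna, the sliding clamp, by 0.15 (adjusted p = 0.033), and Mcm4, a helicase subunit, by 0.16 (adjusted p = 0.0343). The count of this list called lower was 3 without control 1, 1 without control 2 and 0 without either treated library, and the list's median stayed between -0.0901 and -0.0615. In these fits Uhrf1 was not called without EM-plasma 1 (adjusted p = 0.222) or EM-plasma 2 (0.189). Pola1 and Pcna kept the call without control 1 and lost it without control 2 (0.198 and 0.142), without EM-plasma 1 (0.352 and 0.588) and without EM-plasma 2 (0.154 and 0.453). Mcm4 was called in none, at 0.0519 and 0.243 with control 1 or control 2 left out, and at 0.319 and 0.632 with EM-plasma 1 or EM-plasma 2 left out.

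Of 22 DREAM target genes of the G2/M step 2 fell and 0 rose, against 2.88% and 3.34% of all genes, with a median log2 fold change of -0.098, and in 17 of them both treated libraries lay below both controls and in 2 above them, against 24.8% and 24.3% of all genes. Mki67, the proliferation marker Ki-67, was at 960 and 1029 CPM in controls and at 880 and 890 CPM in treated libraries, and fell by 0.17 on the log2 scale (adjusted p = 0.0101). Ccnb2, a mitotic cyclin, fell by 0.17, from 109 ± 1.96 to 96.8 ± 0.379 CPM (SD, n = 2 per group; adjusted p = 0.0455). The count called lower was 6 without control 1 and 0 in the other 3 fits of this kind, and the median stayed between -0.106 and -0.0682. Mki67 lost the call when control 2 (adjusted p = 0.134), EM-plasma 1 (0.359) or EM-plasma 2 (0.257) was dropped. Ccnb2 was called in none of the 4 (0.079 when control 1 was dropped, 0.132 for control 2, 0.519 for EM-plasma 1 and 0.527 for EM-plasma 2). In bulk RNA a smaller share of cells in a phase and less RNA per cell cannot be told apart.

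**Figure D5:**
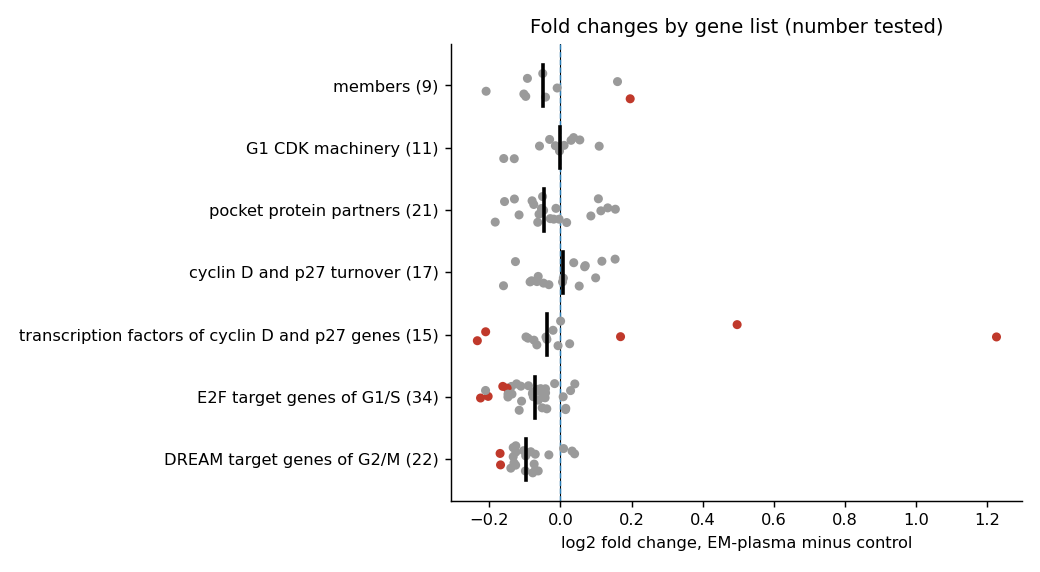
Log2 fold change, EM-plasma minus control, of each tested gene of the 10 described (members) and of the 6 pathway lists, with red for genes called at an adjusted p below 0.05, a black bar for each list's median and a dashed line for the median of all genes. The medians of the G1/S (-0.071) and G2/M (-0.098) lists lie left of 0, while Etv4 at 1.23 and Etv5 at 0.50 stand far to the right in the transcription factor list.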

How the data were processed

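Poly(A) RNA of 2 control and 2 EM-plasma libraries was analysed, grouped by sample title. GRCm38 is the build named in the labels, and the tools listed, per the submitters' processing notes, are edgeR, HTSeq, TopHat2 2.1.1 and CASAVA, without their roles. No label names the annotation release or the counting's strand setting. The authors deposited raw counts per Ensembl gene, and 1 table per library of a scaled signal, in which each deposited signal equalled the count times 1 constant and which was used only for that check. From the counts, genes were kept by filterByExpr (13664 of 53465), scaled by TMM, and tested with edgeR 4.0.16 (R 4.3.3), quasi-likelihood F test on group alone, two-sided, Benjamini-Hochberg over all genes tested. Standard errors were derived from F (absolute log2 fold change over its root), with 27.46 total degrees of freedom, and replicates varied by 4% (biological coefficient of variation). The test was tried on simulated counts, where it called 4 of 13291 unchanged genes. Positions, exon lengths and transcripts came from GENCODE mouse release M21 on GRCm38, and the gene symbol Skp1 was matched through its older name. The limit given for a count of 0 covers counting error only.

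The members and lists were chosen with earlier results of these data known. Named genes were the 10 members, up to 4 called genes of each list by smallest adjusted p (or the 2 most abundant where none was called), Cdkn2a, Cdkn2b, Cdkn1a, Ccne1, E2f1 and Myc, and the most abundant marker of each cell type. The 4 genes nearest in profile to the 2 members of smallest adjusted p were also named. LTO1, Cdkn2d, E2f8, Cdc34 and Col1a1 were named after their values were seen. So were the other melanocyte markers and the neighbouring genes that overlap members. Alternatives were DESeq2 1.42.0, voom in limma 3.58.1, other scalings, filters and dispersions, a replicate block, and leaving out each library.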

Additional observations from a re-analysis of the deposited data

How the results depend on the processing

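Fits that left out 1 library called 48 to 258 genes higher and 23 to 289 lower in place of 456 and 393, 0 to 1 members higher in place of 1, 0 to 2 list genes higher in place of 3 and 0 to 10 lower in place of 8. The fewest genes were called without control 2 (48 higher, 23 lower), against 258 and 289 without control 1, 157 and 105 without EM-plasma 1, and 166 and 90 without EM-plasma 2. The spread was estimated differently in each. Leaving out a control gave a biological coefficient of variation of 2.44%, and leaving out a treated library one of 5.01%. The total degrees of freedom were 5.71 without control 1, 5.27 without control 2, and 14100 without EM-plasma 1 or without EM-plasma 2. These fits thus differ in both the spread and the weight given to it. The group left with 1 library is assumed to vary like the other. With genes of at least 1 read and no other filter, 13 genes were called higher and 1 lower, with 0 members and 0 list genes in either direction, and the total degrees of freedom were 5.36. Equal replicate numbers are not said to mark a shared culture, and the deviations of control 1 and EM-plasma 1 from their group means correlated at 0.0393 over genes, so the numbers were not treated as pairs. The replicate block called 832 genes higher and 851 lower, and 25 list genes lower. Of the members it called 2 higher (Ccnd1, and Cdk6 at an adjusted p of 0.046) and 1 lower (Rb1 at 0.016). Its total degrees of freedom were 13700, against 27.46 in the reported fit, so the spread was taken almost wholly from all genes together. DESeq2 called 246 genes higher and 299 lower, with 1 member higher and 0 lower. The other scalings and filters, the newer dispersion and limma voom kept the count of members at 1 higher and 0 lower. Over 12 alternatives the log2 fold change of Ccnd1 ran from 0.19 to 0.21, with 8 calls and an adjusted p from 6.81e-05 to 0.345. Over these alternatives, 32 tested genes gave 383 values, of which 49 lost the call, 9 gained it and 11 changed sign, the last all in genes that were not called. Leaving out 1 library gave log2 fold changes of -0.0641 (without control 1) to 0.0458 (without control 2) for Rbl2, -0.0216 (without EM-plasma 1) to 0.0151 (without control 1) for Cdkn1a, -0.0668 (without control 2) to 0.0056 (without control 1) for Cdc37, -0.103 (without control 1) to 0.0081 (without control 2) for Cul1, and -0.016 (without control 2) to 0.092 (without control 1) for Cdkn2d. Rbl2 was also above 0 without EM-plasma 1 (0.0139), with library totals (0.0016) and with the 5 CPM filter (0.00068), and Cdkn1a without EM-plasma 2 (0.0139), with library totals (0.0083) and with the 5 CPM filter (0.0073). Under the block Cdc34 (adjusted p = 0.00549) and E2f8 (0.00497) were called too. The level of Ccnd2 per kb was 107 with merged exons and 159 with the longest transcript. For Cdkn1c, Cdkn2a and Cdkn2b depth sets the highest level that few or no reads allow. Why these genes had few or no reads was not tested. For the tested genes the median SE of 0.0698 on the log2 scale limits what can be called.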
